A study of Mus musculus with 24 samples.

Results

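The enzymes that add acetyl groups to histones (writers), those that take them off (erasers) and the bromodomain proteins that bind acetylated histones (readers) were followed in tibialis anterior, a lower-leg muscle, of mice lacking 1 functional copy of Vps39. The members were 31 named genes, each represented by its probe set on the Clariom S mouse array. Probe sets were found for 30 of the 31, among 19572 probe sets with a gene symbol, and the gene without one, Brd3, was not analysed here. The 30 were 16 erasers, 10 writers and 4 readers, with 1 probe set each.

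The animals were Vps39+/- mice, carrying a germ-line Vps39 allele disrupted in exon 2 by an inserted neomycin-EGFP cassette, and wild-type (WT) littermates, all on the C57BL/6J background. They were kept on chow under a 12-h light and 12-h dark cycle. The study's reporting summary gives an age of 4 months, and other parts of the paper give a range that starts there. Each of the 4 groups (WT female, Vps39+/- female, WT male, Vps39+/- male) held 6 mice and each mouse gave 1 array, so 12 mice of each genotype were compared. The labels name an untreated, whole muscle that was homogenised. As the allele is germ-line, every tissue carries it, and the design does not assign a difference to the muscle fibre. Values are log2 levels after Robust Multi-array Analysis (RMA), in which 1 unit is a doubling of signal. Levels are comparable between mice for a given probe set but not between probe sets.

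In chromatin, acetylation of the histone tails neutralises lysine charge, loosens the contact with DNA and creates docking sites for bromodomains. Lysine acetyltransferases use acetyl-CoA as donor, zinc-dependent histone deacetylases (Hdac genes) reverse the reaction, and sirtuins (Sirt genes) do so by consuming NAD+. In skeletal muscle, class IIa deacetylases carry nerve and calcium signals to MEF2 target genes, and the acetyltransferases p300 and PCAF act as coactivators of MyoD.

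All 14 measured muscle fibre markers were present, with a list mean between 13.1 and 13.2 on the log2 scale. Array medians lay between 5.55 and 5.64, correlations between arrays ranged from 0.935 to 0.989, and no pair of arrays was identical. Eif2s3y, Uty and Kdm5d separated the sexes without overlap. The Vps39 probe set itself was not lower in Vps39+/- mice (log2 difference 0.34, SE 0.174, adjusted p = 0.709 in limma). It was at 0.525 in females (unadjusted p = 0.0422, adjusted p = 0.588) and 0.149 in males (adjusted p = 0.93). As its probes may lie outside the disrupted part, it does not check the genotype labels. Liver transcripts stood out in some arrays. WT female 2 had the highest mean of 22 liver markers (11.4), followed by WT female 6 (10.18), then Vps39+/- male 3 (9.83) and male 2 of that genotype (9.15), against a low of 4.77 in the series. Each probe set was fitted against this liver mean. An adjusted p under 0.05 was found for 0 of the 30 genes and 3.1% of all probe sets. At that share few of 30 genes would pass, so this count cannot decide whether they carry liver signal. Slopes with an unadjusted p under 0.05 were those of Kat5 (-0.0481), Kat6a (-0.0612), Kat6b (-0.044) and Brd9 (0.0714). The mean of the 30 genes was lowest in WT female 2 (7.193), Vps39+/- male 3 (7.215) and WT female 6 (7.237). In Vps39+/- male 2 it was 7.292. The running numbers in the sample titles form 1 unbroken block per group, with all females before all males. If they stand for an order of processing, that order cannot be told apart from genotype within each sex, nor from sex.

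All 30 genes had a mean level of at least 5, from 5.65 for Hdac10 and 5.70 for Brd9 to 9.57 for Crebbp and 10.13 for Sirt2. The spread between mice of the same group was small. Within-group SDs ran from 0.0994 for both Hdac2, a nuclear class I deacetylase, and Sirt2, the mainly cytoplasmic sirtuin that deacetylates tubulin, up to 0.318 for Hdac10, a polyamine deacetylase. Their median was 0.159, whereas it was 0.185 over the 11780 probe sets that reached that mean.

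The first comparison asked whether partial loss of Vps39 altered the acetylation machinery in muscle of both sexes combined. None of the 30 genes passed the test after adjustment over all probe sets, and neither did any probe set on the array (0% called). At an unadjusted p under 0.05 there were 6 of 30 genes, of which 2 were higher and 4 lower in Vps39+/- mice. The corresponding background over all 19572 probe sets was 7.34%, split into 4.72% higher and 2.62% lower. This count was 3 when any one of WT female 1, WT female 6, WT male 2, WT male 4, WT male 5 or Vps39+/- female 3 was left out. The median difference over the 30 genes was 0.0049, next to 0.0080 over all probe sets.

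**Figure D1:**
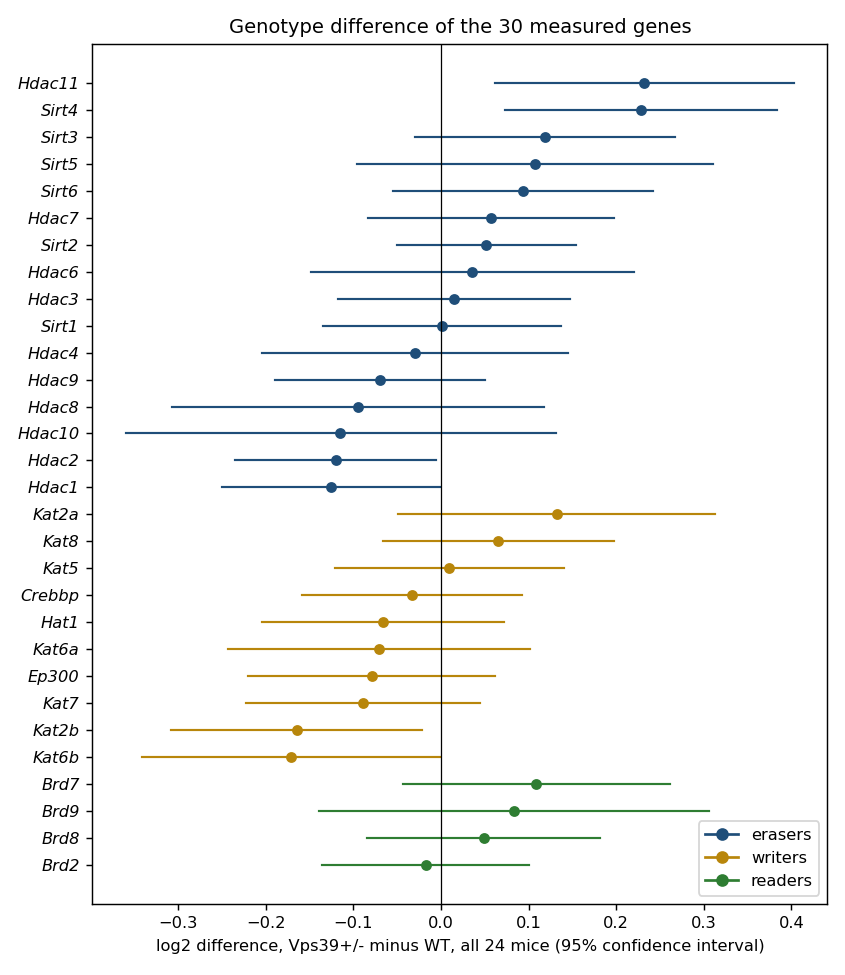
Log2 difference between Vps39+/- and WT mice (x axis, 24 mice) for each of the 30 measured genes (y axis), coloured by role, with 95% confidence intervals from limma as lines. Hdac11 and Sirt4 lie farthest to the right at 0.23 each, and Kat6b at -0.17 and Kat2b at -0.16 farthest to the left.

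The 2 genes that were higher are both erasers with sites of action beyond the histones. Sirt4 encodes a mitochondrial sirtuin that removes lipoyl groups from the pyruvate dehydrogenase complex. Hdac11 encodes the sole class IV deacetylase, which also strips fatty acyl groups from proteins. To show what the promoters of genes on opposite sides of the comparison look like, the 250 bases before the RefSeq transcription start (build GRCm38.p6, printed 5′ to 3′ in the direction of the gene) are given for both and for Hdac2, which was lower. They lie at chr5:115484298-115484547 (- strand) for Sirt4, at chr6:91156565-91156814 (+ strand) for Hdac11 and at chr10:36974294-36974543 (+ strand) for Hdac2. Capitals mark any of the motifs described after the sequences.
Sirt4: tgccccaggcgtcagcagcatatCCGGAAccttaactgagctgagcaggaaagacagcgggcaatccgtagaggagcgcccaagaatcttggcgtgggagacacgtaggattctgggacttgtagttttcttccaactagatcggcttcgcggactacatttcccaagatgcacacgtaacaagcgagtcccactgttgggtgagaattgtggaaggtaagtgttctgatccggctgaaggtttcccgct
Hdac11: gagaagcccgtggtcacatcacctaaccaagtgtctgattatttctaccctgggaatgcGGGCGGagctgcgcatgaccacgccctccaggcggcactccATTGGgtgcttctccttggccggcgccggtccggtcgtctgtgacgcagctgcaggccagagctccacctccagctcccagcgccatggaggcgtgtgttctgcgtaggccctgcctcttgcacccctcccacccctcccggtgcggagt
Hdac2: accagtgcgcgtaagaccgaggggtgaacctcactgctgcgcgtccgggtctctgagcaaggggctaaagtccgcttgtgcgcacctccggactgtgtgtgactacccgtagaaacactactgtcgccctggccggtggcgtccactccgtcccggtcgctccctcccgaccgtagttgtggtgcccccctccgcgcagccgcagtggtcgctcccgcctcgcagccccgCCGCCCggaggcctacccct

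Searched on both strands were the GC box (GGGCGG), the ETS site (CCGGAA), the CCAAT box (CCAAT), the E-box (CACGTG) and the TATA box (TATAAA), none of which overlapped another in the printed windows. Sirt4 held 1 ETS site and no GC box, Hdac11 held 1 GC box and 1 CCAAT box, and Hdac2 held 1 GC box. RefSeq listed 38 such windows for 25 of the 30 genes. A GC box was present in 57.9% of them, while 32.7% of the 32851 windows of all genes had one. For the ETS site these shares were 26.3% and 12%, and for the TATA box 5.3% and 12.4%. The median number of CpG dinucleotides per window was 17.5 for the 25 genes and 6 for all genes. CCAAT boxes (34.2% and 33.8%) and E-boxes (7.9% and 6%) had nearly the same share in both. These shares describe letters in a window and not bound sites, and the windows of 1 gene can overlap.

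In WT mice Sirt4 had a lowest, median and highest level of 6.05, 6.49 and 6.74. In Vps39+/- mice the corresponding levels were 6.37, 6.71 and 6.98. The ranges overlapped, yet 11 of 12 Vps39+/- mice lay above the WT mean. The log2 difference was 0.23 (SE 0.0757), a 1.17-fold higher signal, with an unadjusted p = 0.0057, an adjusted p = 0.509 in limma and p = 0.0047 in a two-sided permutation test.

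For Hdac11, levels in WT mice were 5.59 at the lowest, 6.08 at the median and 6.43 at the highest, and in Vps39+/- mice 6.09, 6.26 and 6.61. The genotypes separated at the low end, where 6 WT mice were below every Vps39+/- mouse, and overlapped above it. All 12 Vps39+/- mice were above the WT mean. The difference was 0.23 (SE 0.0829), or 1.17-fold, with unadjusted p = 0.0096, adjusted p = 0.56 and permutation p = 0.00941. It was nearly the same in females (0.22) and in males (0.24), and in both sexes 6 of 6 Vps39+/- mice were above the WT mean. Its interval within females, however, ran from -0.03 to 0.47, and leaving out WT female 4, the lowest mouse, brought the female difference to 0.13. With the title number as a block it was 0.135 (adjusted p = 0.786).

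Among the other sirtuins, the mitochondrial Sirt3, the main deacetylase of that compartment, was at 0.12 (SE 0.0721, adjusted p = 0.772) and Sirt5, which removes succinyl groups, at 0.11 (SE 0.0986). Sirt6, a chromatin-bound sirtuin, was at 0.09 and Sirt2 at 0.05. Sirt1, the nuclear sirtuin that deacetylates PGC-1α and FOXO factors, was at 0.00 with an interval from -0.14 to 0.14. All 6 differences were above 0, that of Sirt1 by 0.0007, but only that of Sirt4 reached an unadjusted p under 0.05. Within the sexes, Sirt1 was at 0.11 in females and -0.11 in males, and Sirt2 at -0.003 in females and 0.11 in males. The remaining sirtuins were above 0 in both sexes.

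The paralogous class I erasers Hdac1 and Hdac2, the catalytic subunits of the Sin3, NuRD and CoREST corepressors, were both somewhat lower in Vps39+/- mice. Hdac2 levels were 7.85, 8.06 and 8.27 (lowest, median, highest) in WT and 7.82, 7.92 and 8.16 in Vps39+/- mice. Those of Hdac1 were 7.27, 7.60 and 7.8 in WT and 7.26, 7.49 and 7.69 in Vps39+/- mice. The ranges overlapped almost entirely for both genes and the shift lay in the medians. Hdac2 differed by -0.12 (SE 0.0555, unadjusted p = 0.0394, adjusted p = 0.657, permutation p = 0.0241) and Hdac1 by -0.13 (SE 0.0607, unadjusted p = 0.0487, adjusted p = 0.677, permutation p = 0.0367). When each array was left out in turn, the unadjusted limma p was no longer under 0.05 in 12 of 24 fits for Hdac2. For Hdac1 this was so in 15 of 24. The third class I enzyme, Hdac3 of the NCoR/SMRT complex, was at 0.01 (SE 0.0644), and Hdac8, which acts on cohesin, at -0.09 (SE 0.103). The class IIa genes Hdac4, Hdac7 and Hdac9, whose products hold MEF2 in check, were at -0.03, 0.06 and -0.07, and the class IIb genes Hdac6, encoding the tubulin deacetylase, and Hdac10 at 0.04 and -0.11.

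Of the 10 writers, 7 were lower and 3 higher in Vps39+/- mice, with a median difference of -0.07. Kat2b encodes PCAF, an acetyltransferase of the SAGA and ATAC type complexes. Its levels were 7.35, 7.54 and 7.95 in WT mice (lowest, median, highest) and 7.16, 7.4 and 7.65 in Vps39+/- mice. The WT high of 7.95 came from WT female 1, and 11 of 12 Vps39+/- mice lay below the WT mean. The difference was -0.16 (SE 0.0696, unadjusted p = 0.0255, adjusted p = 0.629, permutation p = 0.0215), and it was -0.13 (adjusted p = 0.712) without WT female 1, when its unadjusted p was no longer under 0.05. Kat2a, encoding the close paralogue GCN5, went the other way at 0.13 (SE 0.088, adjusted p = 0.799).

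Kat6b, which encodes the MYST-family enzyme MORF, had levels of 7.54, 7.73 and 8.01 in WT mice and 7.06, 7.63 and 7.88 in Vps39+/- mice. The genotypes overlapped, with the 3 lowest values in Vps39+/- males. The difference was -0.17 (SE 0.0826, unadjusted p = 0.0484, adjusted p = 0.676, permutation p = 0.0491). Without the 4 arrays of highest liver mean it was -0.13 (adjusted p = 0.78) and its unadjusted p was no longer under 0.05, while with the liver mean as a covariate it was -0.17 (adjusted p = 0.599) and its unadjusted p stayed under 0.05. Kat6a (MOZ, the paralogue of MORF), Kat7 (HBO1, linked to replication origins), Hat1 (which acetylates new histone H4), Ep300 (p300) and Crebbp (CBP) were between -0.09 and -0.03, while Kat5 (TIP60) and Kat8 (MOF) were at 0.01 and 0.07. Among the readers, Brd7 and Brd9 of SWI/SNF remodellers were at 0.11 and 0.08, Brd8 of the TIP60 complex at 0.05 and the BET protein gene Brd2 at -0.02. No reader had an unadjusted p under 0.05. As the whole muscle was used, a lower level in fewer cells and less RNA per cell cannot be told apart for any of these genes.

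**Figure D2:**
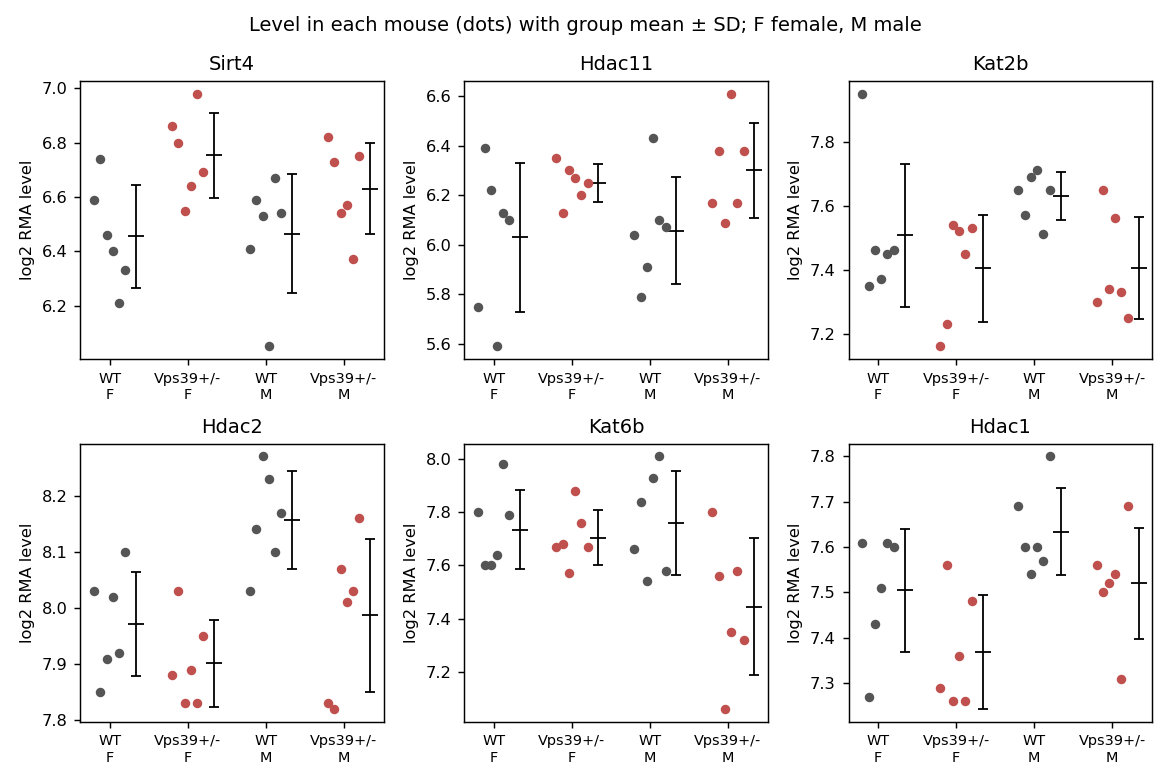
Log2 RMA level (y axis, a separate scale per gene) in each mouse (dots, 6 per group) for the 6 genes with an unadjusted p under 0.05 for genotype; crossbars show the group mean ± SD. Sirt4 and Hdac11 dots are shifted up in both sexes, Kat2b carries 1 high mouse at 7.95 among WT females, and the low Kat6b values, down to 7.06, belong to Vps39+/- males.

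The partner proteins of these enzymes were counted in the same way, against the same background of 7.34% at an unadjusted p under 0.05. Of 32 measured subunits of deacetylase complexes, 1 was higher and 1 lower at an unadjusted p under 0.05: Phf12 of the Sin3 complex (0.17, adjusted p = 0.597) and Rcor1, the CoREST scaffold that binds Hdac1 and Hdac2 (-0.19, adjusted p = 0.573). Of 44 measured subunits of acetyltransferase complexes, 32 were lower and 12 higher, with a median of -0.03. Of the 44, 3 had an unadjusted p under 0.05, namely Supt20 (-0.24, adjusted p = 0.603) and Supt7l (0.15, adjusted p = 0.636) of SAGA and Morf4l2 of the TIP60 complex (-0.12, adjusted p = 0.676). Among 18 measured genes of acetyl-CoA and NAD+ supply 1 did, Nampt, the rate-limiting enzyme of NAD+ salvage on which sirtuins depend, at -0.16 (SE 0.0685, adjusted p = 0.636). In the other 3 lists, 1 of 26 further acetyl-lysine readers, 2 of 29 class IIa partners and HDAC4-linked muscle genes and 1 of 14 transcription partners of BET proteins and sirtuins had an unadjusted p under 0.05. They were Dpf1 of the BAF remodeller (0.20), the acetylcholine receptor gene Chrnd (0.34), Ywhaz, a 14-3-3 protein that keeps class IIa deacetylases in the cytoplasm (-0.09), and the nuclear receptor gene Pparg (-0.29). No gene of these lists passed the adjusted test.

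Within females, the main difference was in a reader. Brd7, the bromodomain subunit of the PBAF chromatin remodeller that also binds p53, was higher in every Vps39+/- female than in any WT female. WT females had Brd7 levels of 7.84 (lowest), 7.97 (median) and 8.28 (highest), and Vps39+/- females 8.29, 8.33 and 8.42. The groups therefore did not overlap, though the gap between the highest WT female and the lowest Vps39+/- female was narrow. The difference was 0.35 (SE 0.0827), or 1.27-fold, with unadjusted p = 0.000297, adjusted p = 0.357 in limma and p = 0.00216 in an exact two-sided permutation test, the smallest that 6 against 6 mice can give. It was 1 of 30 genes without overlap, against 0.46% of all probe sets. None of the 30 passed the adjusted test in females (0% of all probe sets). At an unadjusted p under 0.05 there were 2 of 30, both higher, with a background of 8.32% (5.36% higher and 2.96% lower), and without WT female 2 there were 4. The promoter window of Brd7, at chr8:88362173-88362422 (- strand), held 2 GC boxes, in capitals as before.
Brd7: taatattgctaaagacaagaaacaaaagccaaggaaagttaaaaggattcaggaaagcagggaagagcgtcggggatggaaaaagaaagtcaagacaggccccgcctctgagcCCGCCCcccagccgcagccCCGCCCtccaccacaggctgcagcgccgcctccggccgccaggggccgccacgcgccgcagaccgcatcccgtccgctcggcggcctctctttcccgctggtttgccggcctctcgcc

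In males Brd7 did not show this. Levels were 7.98, 8.23 and 8.41 in WT males and 7.94, 8.10 and 8.29 in Vps39+/- males, and the ranges overlapped broadly. The difference was -0.13 (SE 0.0827, adjusted p = 0.776). The genotype by sex interaction, that is the male minus the female difference, was -0.48 (SE 0.117) with an interval from -0.72 to -0.24 and adjusted p = 0.512. The group means were 8.00 in WT females, 8.24 in WT males, 8.35 in Vps39+/- females and 8.11 in Vps39+/- males. Brd7 was the 1 gene of 30 with an unadjusted p under 0.05 for the interaction, where 7.79% of all probe sets reached it and 0% passed the adjusted test. The count was 2 without any one of WT female 4, WT male 1, 3 or 6, Vps39+/- female 1 or Vps39+/- male 1, 4 or 6, and 3 without WT female 5.

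Markers of other cells were set beside Brd7, and none of those named here passed the adjusted test for genotype. Over all probe sets, 8.32% had an unadjusted p under 0.05 in females, and the median difference was 0.023 in females and -0.0018 in males. Of 9 measured endothelial markers, all with a mean level above 5, 9 were higher in Vps39+/- females (median 0.17, 2 at an unadjusted p under 0.05) and 7 were lower in Vps39+/- males (median -0.04). Their list mean ranged from 7.43 to 7.89 in WT females, 7.75 to 7.93 in Vps39+/- females, 7.55 to 7.8 in WT males and 7.49 to 7.83 in Vps39+/- males. The part of these and the following cell type markers in the Brd7 difference was not tested. The list median was -0.40 for 7 adipocyte markers in females, with 7 of 7 lower in Vps39+/- mice, and 0.14 in males, with 4 higher and 3 lower. Within each sex 0 of the 7 had an unadjusted p under 0.05. Among females the adipocyte list mean spread from 5.58 to 8.09 in WT and from 6 to 6.4 in Vps39+/- mice, and among males from 5.6 to 7.35 and from 5.74 to 8.16. Of 7 macrophage markers 6 were lower in Vps39+/- females (median -0.24) and 4 in Vps39+/- males. Of 6 lymphocyte markers 5 were higher in Vps39+/- females (median 0.17, 2 at an unadjusted p under 0.05) and 4 in Vps39+/- males, although only 1 of the 6 had a mean level above 5. Of 4 nerve and Schwann cell markers 3 were higher in Vps39+/- females (median 0.15) and 2 in Vps39+/- males. Of 7 fibroblast markers 5 were lower in Vps39+/- females (median -0.17) and 1 in Vps39+/- males. For 7 satellite cell markers these counts were 4 (median -0.065) and 3. In the nerve, fibroblast and satellite cell lists, 0 markers had an unadjusted p under 0.05 within either sex. For the 22 liver markers the signs were the inverse of those of Brd7, with 22 lower in Vps39+/- females and 22 higher in Vps39+/- males. Within each sex, however, 0 of the 22 had an unadjusted p under 0.05. Their list mean ranged from 5.01 to 11.4 in WT females and from 4.91 to 7.37 in Vps39+/- females. In males it ranged from 4.77 to 7.29 in WT and from 4.84 to 9.83 in Vps39+/- mice. Brd7 was at 0.32 (adjusted p = 0.549) in females with the liver mean as a covariate and at 0.28 (adjusted p = 0.787) without the 4 arrays of highest liver mean, while the interaction was at -0.42 and -0.38. The meaning of the number before the point in the sample titles is not stated. In females only number 1 occurs in both genotypes (2 WT and 3 Vps39+/- mice). The other WT females carry 6 or 7 and the other Vps39+/- females 2 or 4. With that number as a block Brd7 was at 0.37 (adjusted p = 0.158), but such a fit separates the number from genotype in females only weakly.

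**Figure D3:**
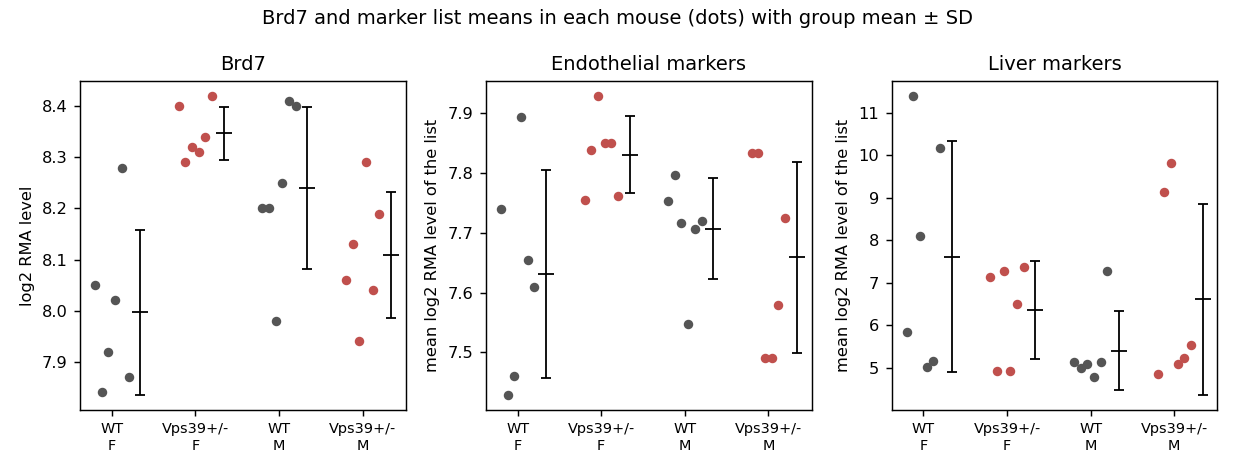
Log2 RMA level of Brd7 (left) and the mean log2 level of 9 endothelial (middle) and 22 liver markers (right) in each mouse (dots, 6 per group), with the group mean ± SD as crossbars and a separate y axis per panel. All Vps39+/- females lie at 8.29 or above for Brd7, their endothelial means lie at 7.75 or above, and the highest liver mean is 11.4 in a WT female.

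The other readers were also higher in Vps39+/- females, Brd9 by 0.15 (SE 0.157), Brd8 by 0.13 (SE 0.0902) and Brd2 by 0.04 (SE 0.08). Thus 4 of 4 were above 0 with a median of 0.14, next to 0.023 over all probe sets. In males 3 of 4 were below 0, with a median of -0.053 next to -0.0018 over all probe sets. Apart from Brd7 in females, the 95% interval of each of these differences included 0. Sirt4 was the second gene in females. WT females had levels of 6.21, 6.43 and 6.74 (lowest, median, highest) and Vps39+/- females 6.55, 6.74 and 6.98. Overlap came from WT female 2 at 6.74 and WT female 1 at 6.59. The difference was 0.30 (SE 0.108, unadjusted p = 0.0112, adjusted p = 0.528, exact permutation p = 0.0195). Once the title number entered as a block it was 0.21 (adjusted p = 0.545), and its unadjusted p was no longer under 0.05. In males it was 0.16 (SE 0.108), and the interaction was -0.14 (SE 0.152, adjusted p = 0.872).

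Within males, none of the 30 genes passed the adjusted test (0% of all probe sets). At an unadjusted p under 0.05 there were 4 of 30, all lower, against a background of 7%, of which 3.19% were higher and 3.82% lower. In 0 of 30 genes were the male genotypes free of overlap, as against 0.542% of all probe sets. The 4 were the writers Kat6b, Kat2b and Ep300 and the eraser Hdac2. Of the 10 writers, 8 were below 0 with a median of -0.09, next to -0.0018 over all probe sets. The largest differences after Kat6b were those of 2 erasers that did not reach this threshold, Hdac8 (-0.28) and Hdac11 (0.24), and the writer Kat2a was at 0.23. Without Vps39+/- male 2 the count was 2.

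Kat6b had the largest difference of the 30 in males. Levels were 7.54, 7.75 and 8.01 (lowest, median, highest) in WT males and 7.06, 7.45 and 7.8 in Vps39+/- males. Vps39+/- male 3, one of the arrays with high liver transcripts, had the lowest level of all. The difference was -0.32 (SE 0.108), 0.803-fold, with unadjusted p = 0.00734, adjusted p = 0.616 and exact permutation p = 0.0346. It was -0.24 (adjusted p = 0.745) without Vps39+/- male 3 and -0.25 (adjusted p = 0.805) without all 4 arrays of highest liver mean. In females Kat6b was at -0.03 (SE 0.108), and the interaction was -0.29 (SE 0.153, adjusted p = 0.653), or -0.18 (adjusted p = 0.943) with the liver mean as a covariate.

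Kat2b ranged from 7.51 to 7.71 (median 7.65) in WT males and from 7.25 to 7.65 (median 7.34) in Vps39+/- males. In all, 4 Vps39+/- males were below every WT male. The difference was -0.23 (SE 0.0984, unadjusted p = 0.0304, adjusted p = 0.682, exact permutation p = 0.0173). With the title number as a block it was -0.15 (adjusted p = 0.723), and its unadjusted p was no longer under 0.05. Ep300, encoding the coactivator p300, ranged from 7.95 to 8.25 (median 8.11) in WT males and from 7.71 to 8.12 (median 7.90) in Vps39+/- males. Here too the ranges overlapped, with the lowest mice all Vps39+/-. The difference was -0.20 (SE 0.0893, unadjusted p = 0.0374, adjusted p = 0.689, exact permutation p = 0.0216), whereas females were at 0.04. The unadjusted p of the male difference was no longer under 0.05 with the title number as a block (-0.17), with the liver mean as a covariate (-0.16) or without the 4 arrays of highest liver mean (-0.17). The Ep300 interaction was -0.24 (SE 0.126, adjusted p = 0.659), and it was -0.13 (adjusted p = 0.971) without those 4 arrays. Crebbp, encoding the related CBP, was at -0.04 in males and -0.03 in females. Hdac2 ranged from 8.03 to 8.27 in WT males and from 7.82 to 8.16 in Vps39+/- males, a difference of -0.17 (SE 0.0692, unadjusted p = 0.0211, adjusted p = 0.664, exact permutation p = 0.026), and of -0.15 (adjusted p = 0.828), with an unadjusted p no longer under 0.05, without the 4 arrays of highest liver mean.

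Hdac8 had the second largest interaction, -0.36 (SE 0.201, adjusted p = 0.674), but a wide spread. It ranged from 5.11 to 6.22 in WT males and from 5.28 to 5.72 in Vps39+/- males, and leaving out WT male 1, the lowest, took the interaction to -0.51 (adjusted p = 0.65). Kat2a differed in males in the opposite direction to its paralogue Kat2b, at 0.23 (SE 0.113, adjusted p = 0.713, exact permutation p = 0.0173).

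**Figure D4:**
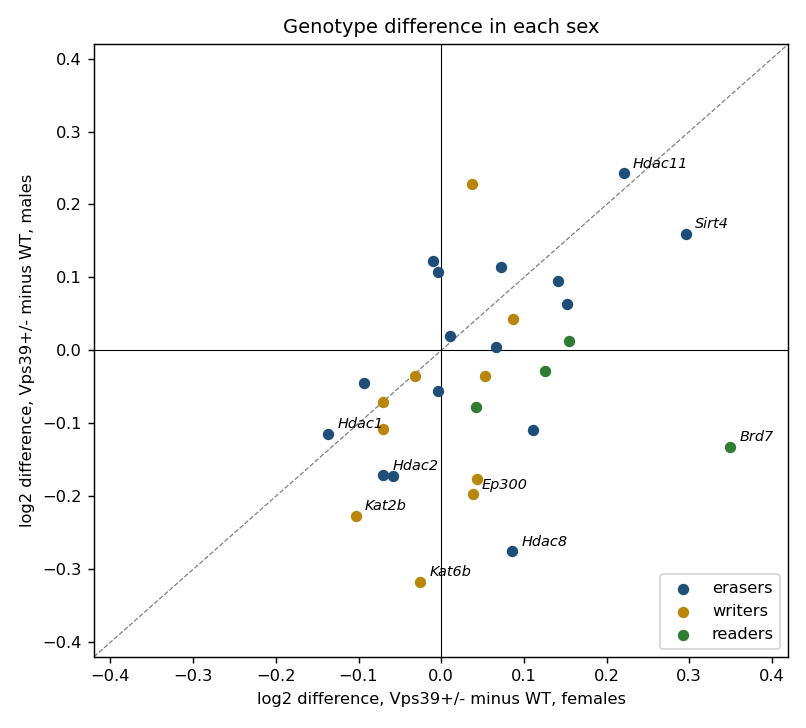
Log2 difference between Vps39+/- and WT mice in females (x axis, 12 mice) against that in males (y axis, 12 mice) for the 30 genes, coloured by role; the dashed line marks equal differences. Hdac11 (0.22 and 0.24) lies on the line, Brd7 (0.35 and -0.13) is far below it, and 22 of the 30 genes lie below it. The median male minus female difference was -0.075 over the 30 genes and -0.025 over all probe sets.

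Among genes that feed or accompany the enzymes, some differences were also unlike in the 2 sexes, though none passed the adjusted test. The pyruvate dehydrogenase genes Pdhb, Pdha1 and Dlat, which make the mitochondrial acetyl-CoA and include the lipoylated target of Sirt4, were at 0.18, 0.18 and 0.20 in females (adjusted p = 0.573, adjusted p = 0.575 and adjusted p = 0.587). They were 3 of the 4 genes among 18 of acetyl-CoA and NAD+ supply with an unadjusted p under 0.05 in females, where 8.32% of all probe sets reached it. The fourth, named here after its values were seen, was the citrate carrier gene Slc25a1, at -0.60 in females (adjusted p = 0.59) with an interaction of 0.86 (adjusted p = 0.637). In males Pdhb and Dlat were both at -0.13. The interactions were -0.31 for Pdhb (SE 0.101, adjusted p = 0.632), -0.33 for Dlat (SE 0.13, adjusted p = 0.632) and -0.24 for Pdha1 (SE 0.111, adjusted p = 0.637), each with an unadjusted p under 0.05. Chrnd, the acetylcholine receptor delta subunit that belongs to the nerve-dependent program linked to HDAC4, was at 0.68 in females (SE 0.197, adjusted p = 0.465) with an interaction of -0.68 (adjusted p = 0.632), at a mean level of 4.61 near the dim end. Of 44 subunits of acetyltransferase complexes, 6 had an unadjusted p under 0.05 in males (2 higher and 4 lower), against 7% of all probe sets. The 3 of smallest p were Msl2 of the MOF-containing MSL complex at -0.21 (adjusted p = 0.628), Tada3 of SAGA at -0.35 (adjusted p = 0.663) and Trrap, the scaffold shared by SAGA and TIP60, at 0.23 (adjusted p = 0.68).

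More probe sets differed between the sexes than between the genotypes. The running numbers place all females before all males, so any processing order they record cannot be told apart from sex. Over all probe sets 3.38% passed the adjusted test for sex, and the unadjusted p was under 0.05 for 15.6% (8.53% above and 7.12% below in males). Of the 30 genes, 0 passed the adjusted test and 4 (13.3%) had an unadjusted p under 0.05. The class I deacetylases Hdac1, Hdac2 and Hdac3 were higher in males and Kat2a was lower. Hdac8, also of class I, was at -0.02 (SE 0.101, adjusted p = 0.963 in limma).

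Hdac3, the catalytic subunit of NCoR/SMRT, had levels of 9.33, 9.47 and 9.63 in females (lowest, median, highest) and 9.40, 9.61 and 9.87 in males. Females and males overlapped, but 11 of 12 males lay above the female mean. The difference, male minus female, was 0.17 (SE 0.0571, unadjusted p = 0.00761, adjusted p = 0.119, permutation p = 0.00259). It was 0.16 in WT mice alone and 0.17 in Vps39+/- mice alone.

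Hdac2 was at 7.83, 7.92 and 8.10 in females and at 7.82, 8.08 and 8.27 in males, a difference of 0.13 (SE 0.0489, adjusted p = 0.151). The low males were Vps39+/-, and the sex difference was 0.18 among WT mice and 0.08 among Vps39+/- mice. Hdac1 was at 7.26, 7.45 and 7.61 in females and at 7.31, 7.57 and 7.8 in males, a difference of 0.14 (SE 0.0554, adjusted p = 0.193). Kat2a was at 6.22, 6.60 and 6.86 in females and at 5.95, 6.37 and 6.65 in males, a difference of -0.19 (SE 0.0797, adjusted p = 0.217), and the 2 lowest levels were those of WT males. It was -0.29 among WT mice and -0.10 among Vps39+/- mice. For each of these genes the ranges of the sexes overlapped.

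**Figure D5:**
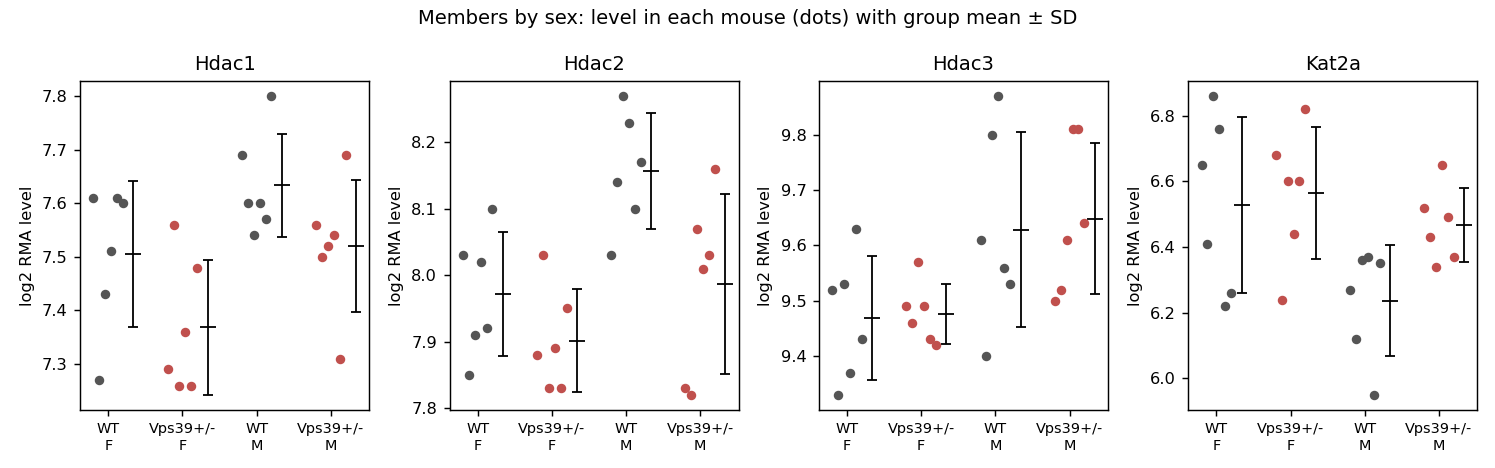
Log2 RMA level (y axis, a separate scale per gene) of Hdac1, Hdac2, Hdac3 and Kat2a in each mouse (dots, 6 per group), with the group mean ± SD as crossbars. Hdac3 is higher in males of both genotypes (up to 9.87 against 9.63 in females), and the lowest Kat2a values, down to 5.95, are those of WT males.

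Partner genes were set against the same 3.38% of all probe sets that passed the adjusted test for sex. Of the 18 genes of acetyl-CoA and NAD+ supply 0 passed. Among deacetylase complex subunits 3 of 32 did, all higher in males: Mbd2 of NuRD (0.19, adjusted p = 0.0176), the histone-binding Rbbp7 (0.18, adjusted p = 0.0301) and Rcor3 of the CoREST family (0.28, adjusted p = 0.0384). Vps72, a histone-exchange subunit of the TIP60 complex, was higher by 0.23 (adjusted p = 0.00753), as 1 of 44 acetyltransferase complex subunits. Of 26 further readers 2 passed, Trim24, a coregulator of nuclear receptors, at 0.65 (adjusted p = 2.83e-07) and Sp110 at 0.26 (adjusted p = 0.0419). Among the 29 class IIa partners and HDAC4-linked muscle genes 2 passed, both higher in males, namely Musk, the kinase that organises the neuromuscular junction, at 0.79 (adjusted p = 0.000656) and Camk2b, a calcium-dependent kinase that phosphorylates class IIa deacetylases, at 0.37 (adjusted p = 0.00957). At an unadjusted p under 0.05 this list had 3 genes higher and 4 lower in males, where 15.6% of all probe sets reached it (8.53% higher and 7.12% lower). Among the 4 lower was Sik1, a kinase of class IIa deacetylases, at -0.47 (adjusted p = 0.0979). Of the 14 transcription partners 3 passed. Per2, a circadian repressor, was higher in males by 1.18 (adjusted p = 1.95e-09), Clock, the circadian activator with acetyltransferase activity, was lower by -0.40 (adjusted p = 0.00205), and the p300-recruiting coactivator Ncoa2 was higher by 0.21 (adjusted p = 0.0434). The time of day at which each group was sampled was not given in the sources used here, so its part in the sex difference of the clock genes cannot be told apart from sex.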

How the data were processed

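RNA of whole tibialis anterior from 24 mice was hybridised to Clariom S mouse arrays, and the authors deposited log2 values made with Affymetrix Expression Console 1.4.1.46 by RMA. RMA corrects background, gives all arrays 1 distribution and summarises probes into probe sets, so a shift shared by most genes is removed and dim differences are compressed. For the array annotation, no build was given in the sources used here. Arrays carry no read depth, and their number limits the precision.

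Of 28846 probe sets, 6640 controls and 2634 without a symbol were left out, and 19572 were tested. The highest-mean probe set was taken per symbol. No per-sample column outside the series was found in the table (0). Groups came from the sample titles and replicates were numbered in accession order, pairing no mice. Genotype was tested in limma 3.58.1 (R 4.3.3) over all mice without covariates, following the unpaired comparison of the study. Within-sex, interaction and sex contrasts came from a fit of the 4 group means. P-values, two-sided, were adjusted by the Benjamini-Hochberg method over the 19572 probe sets in each of 5 comparisons. Single genes were also compared by permutation (all 924 relabellings for 6 against 6, 100000 draws for 12 against 12). The fit was tested on simulated data.

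The 31 genes and the companion and marker lists were chosen with earlier results of these data known. Values by sample are given for genes with an unadjusted p under 0.05 in a comparison, filled up to 4 by smallest p, and for up to 3 genes per companion list and comparison. The litter of each mouse was not stated. The p-values treat the mice as independent and take no account of any shared litter. Promoters are from RefSeq, GRCm38.p6. Alternatives were array median shifts, cyclic loess, a level filter, all probe sets, other spread models and weights, covariates, title number blocks, the methods' t-test, subsets of mice and leaving out each array.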

Additional observations from a re-analysis of the deposited data

Results flagged for a closer look

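Kat2b in WT female 1 stood apart from its group. Its log2 level was 7.95, while the other WT females lay between 7.35 and 7.46, so that the gap took up 0.824 of the group's range, above the critical value for a group of 6. It was the only such value among 44 groups examined (11 genes in 4 groups), and chance alone marks about 1 in 20 groups. Without this mouse the genotype difference of Kat2b was -0.13 (adjusted p = 0.712 in limma) in place of -0.16.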

How the results depend on the processing

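Alternatives were run for 11 of the 30 genes, in the comparisons for which they were described by sample. Their differences kept their sign and none passed the adjusted test under the alternatives run. The genes of the other lists were not rerun. The counts of genes at an unadjusted p under 0.05 moved. Leaving out each array in turn gave 3 to 7 for genotype (6 with all arrays), 2 to 4 in females (2), 2 to 6 in males (4) and 1 to 3 for the interaction (1). An intensity trend with a robust prior gave 2 for the interaction. The title number as a fixed block gave 2 for sex in place of 4, and the cause was not tested. No paired analysis was possible because replicate numbers were given in accession order and pair no mice. The alternative of a further probe set per gene was not run, as each gene has 1. No measure of signal over background was used, and Hdac10, Brd9, Hdac8 and Sirt5, with mean levels of 5.65 to 5.73, lay close to the array medians.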
